A study of Rattus norvegicus with 4 samples.

Results

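The Csf1 axis was followed through 6 genes of the rat trigeminal nerve, namely the ligand gene *Csf1*, its receptor gene *Csf1r* and the macrophage and microglia genes *Aif1*, *Lyz2*, *Cd68* and *Ctss*. They were taken by symbol from the 32623 genes of a Visium spatial transcriptome, and each symbol matched 1 gene. The tissue was the trigeminal root, the semilunar ganglion and the proximal branches of adult male wild type Sprague–Dawley rats with compression of the trigeminal root, the trigeminal neuralgia (TN) model. Capture areas TN1, TN2 and TN3 held the diseased side of 1 animal each, and the fourth area, the healthy control (HC), held tissue of 2 animals that the spots do not tell apart. The series description places HC on the healthy side of 2 of the 3 TN animals, whereas the methods call the controls sham-operated, so some animals may stand in both groups. TN against HC cannot be told apart from a difference between capture areas, and HC, being a single area, gives no spread of its own.

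Csf1 and Il34 are the ligands of the Csf1 receptor, a tyrosine kinase on which macrophages and microglia depend for survival and division. Macrophages populate the sensory ganglion and the peripheral nerve, and microglia populate the central root and the brainstem. Injured sensory neurons of rodents are known to make Csf1. Aif1, also called Iba1, is a calcium-binding protein used to stain macrophages and microglia, Lyz2 is the lysozyme of myeloid cells, Cd68 is a lysosomal membrane glycoprotein of phagocytes, and Ctss, or cathepsin S, is a protease of their endolysosomes.

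Promoter sequences of 4 of the 6 members were at hand from RefSeq on GRCr8, each running from 250 bases before the transcript start to 50 bases after it. They are shown because all 4 genes are known in myeloid cells, where the factor PU.1, made by *Spi1*, binds a core of letters GAGGAA. Capitals mark this core or its reverse complement TTCCTC. Csf1r lies at chr18:56834129-56834428 on the plus strand, Lyz2 at chr7:54797962-54798261 on the minus strand, Cd68 at chr10:54882392-54882691 on the minus strand and Ctss at chr2:185775146-185775445 on the plus strand, all read 5′ to 3′ along the gene.
Csf1r: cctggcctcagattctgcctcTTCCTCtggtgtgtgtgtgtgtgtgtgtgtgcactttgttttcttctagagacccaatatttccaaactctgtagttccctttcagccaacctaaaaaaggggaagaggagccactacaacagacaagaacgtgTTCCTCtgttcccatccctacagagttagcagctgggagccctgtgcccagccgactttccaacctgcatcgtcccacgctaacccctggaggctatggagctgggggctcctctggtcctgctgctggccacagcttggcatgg
Lyz2: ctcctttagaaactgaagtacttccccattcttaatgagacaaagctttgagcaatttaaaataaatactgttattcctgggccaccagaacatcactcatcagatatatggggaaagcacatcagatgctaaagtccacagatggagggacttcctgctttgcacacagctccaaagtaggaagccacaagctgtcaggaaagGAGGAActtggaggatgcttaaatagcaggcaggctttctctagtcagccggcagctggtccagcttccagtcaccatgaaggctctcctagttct
Cd68: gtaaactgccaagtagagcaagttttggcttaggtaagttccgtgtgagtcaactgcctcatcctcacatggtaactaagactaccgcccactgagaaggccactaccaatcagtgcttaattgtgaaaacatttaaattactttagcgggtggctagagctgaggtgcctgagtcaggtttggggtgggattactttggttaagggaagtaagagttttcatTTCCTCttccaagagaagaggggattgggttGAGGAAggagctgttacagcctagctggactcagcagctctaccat
Ctss: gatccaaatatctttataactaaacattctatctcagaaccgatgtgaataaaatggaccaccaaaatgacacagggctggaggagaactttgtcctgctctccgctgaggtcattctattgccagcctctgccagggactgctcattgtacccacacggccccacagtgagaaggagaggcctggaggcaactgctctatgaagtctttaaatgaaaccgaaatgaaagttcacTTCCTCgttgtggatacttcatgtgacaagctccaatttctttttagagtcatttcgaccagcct
All 4 windows held the core, with 2 matches each in Csf1r and Cd68 and 1 each in Lyz2 and Ctss. The match of Lyz2 lay on the gene strand and began 46 bases before the start. That of Ctss lay on the other strand and began 15 bases before the start. Of all 33469 promoters of this length, 27.6% held the core on either strand, so a match is common and describes letters only.

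Spots are small regions that can hold several cells, so each was given to a tissue by its leading marker list. Ganglion spots were led by sensory neuron genes, nerve spots by peripheral myelin genes and central spots by central myelin, astrocyte or central neuron genes, and no member stood on these lists. The 6773 spots split into 1103 ganglion, 1010 nerve and 1949 central spots, with the rest in connective tissue, blood and bone, pituitary or no class. The 4 areas held 23546025 to 41335930 UMIs, with a median of 9487 per spot in TN1 and of 30808 in TN2. Nerve spots were few in TN2, at 61, and in HC, at 144. Their composition also differed, since sensory neuron genes summed to 5023 UMIs per 1000000 (CPM) in HC nerve spots and to 1729 to 2256 CPM in those of TN. A lower level in bulk sums of spots cannot be told apart from fewer cells of a type.

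*Csf1* was highest in the central tissue. In central spots TN1 held 30.7 CPM, TN2 held 50.9, TN3 held 83.2 and HC held 95.02. In ganglion spots it was 20.8, 24.3, 23.9 and 14.04 CPM, and in nerve spots 16.7, 30.1, 24.2 and 16.1 CPM in the same order. The central range therefore lay above the ganglion range and, with 30.7 against 30.1 CPM at their nearest, just above the nerve range. The share of all genes with ranges apart in this way was not counted. *Csf1* was tested with edgeR's quasi-likelihood test on the sums of UMIs, with the capture area as a block. It was lower in ganglion than in central spots by a log2 fold change of -1.81 ± 0.33 (SE of the fit, 4 areas, edgeR adjusted p = 0.00187). It was lower in nerve than in central spots by -1.64 ± 0.34 (edgeR adjusted p = 0.00566). Ganglion and nerve did not pass the test (-0.18 ± 0.34, adjusted p = 0.696). Both differences from central spots passed under every alternative that was run.

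The receptor *Csf1r* and *Aif1* followed the central tissue as well. *Csf1r* stood at 108, 152, 360 and 174 CPM over the central tissue of the 4 areas in that order, against 57.6, 65.0, 48.0 and 28.8 CPM in ganglion spots and 99.6, 107, 114 and 42.5 CPM in nerve spots. Every area had more *Csf1r* in central than in ganglion spots, and TN3 stood out in the central tissue. *Csf1r* was lower in ganglion than in central spots (log2 fold change -2.19 ± 0.34, edgeR adjusted p = 0.000811) and lower in nerve than in central spots (-1.22 ± 0.34, edgeR adjusted p = 0.0232). The second call was lost without TN2, TN3 or HC, where the adjusted p was 0.0519, 0.105 and 0.100, and without the block, where it was 0.0502. *Aif1* was lower in ganglion than in central spots (-1.78 ± 0.32, edgeR adjusted p = 0.00186), while nerve against central spots missed the threshold (-0.89 ± 0.32, adjusted p = 0.0674). The central *Aif1* levels were 80.4, 140, 332 and 147 CPM, so TN3 was again the highest.

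The protease gene *Ctss* showed the steepest central pattern. It was at 140, 62.5, 73.8 and 73.5 CPM in central spots, with the 4 areas in the same order, and at 21.1, 7.997, 4.61 and 2.91 CPM in ganglion spots. No area overlapped between these tissues, but the share of all genes without such overlap was not counted. The fitted fall from central to ganglion spots was -3.85 ± 0.44 on the log2 scale (edgeR adjusted p = 0.000127), and to nerve spots -2.53 ± 0.44 (edgeR adjusted p = 0.00199), the latter lost without the block (adjusted p = 0.0531). In the central and ganglion spots TN1 was the highest area for *Ctss*, although it was the lowest TN area there for *Cd68* and *Lyz2*.

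*Lyz2* and *Cd68* did not differ past the threshold between central spots and either other tissue. *Lyz2* was at 257, 498, 312 and 64.6 CPM in ganglion spots, at 479, 1258, 703 and 95.8 CPM in nerve spots and at 90.2, 240, 538 and 102 CPM in central spots. Ganglion and central values overlapped widely, with a log2 difference of -0.08 ± 0.43 (edgeR adjusted p = 0.9), whose sign turned under 8 of 14 alternatives. For *Lyz2*, nerve against central spots missed the threshold (1.09 ± 0.43, edgeR adjusted p = 0.0925) but passed under 3 of 13 alternatives. *Cd68* was at 8.57, 39.6, 32.4 and 3.60 CPM in ganglion spots, 19.9, 91.1, 71.6 and 4.54 CPM in nerve spots and 6.11, 43.3, 111 and 4.34 CPM in central spots. It was higher in central than in ganglion spots in TN2, TN3 and HC but not in TN1. This contrast did not pass (-0.75 ± 0.35, edgeR adjusted p = 0.114), with a negative sign under all 14 alternatives and a call under 1. *Cd68* also did not pass between nerve and central spots (0.43 ± 0.36, edgeR adjusted p = 0.42). It was lower in ganglion than in nerve spots (-1.18 ± 0.35, edgeR adjusted p = 0.0283), a call lost without TN1, without TN2 and without the block, at adjusted p = 0.0768, 0.138 and 0.373. *Csf1r* and *Ctss* were also lower in ganglion than in nerve spots in the edgeR fit, at adjusted p = 0.0455 and 0.0434. Each lost this call when any 1 of the TN areas was left out, with adjusted p from 0.082 to 0.141 for *Csf1r* and from 0.11 to 0.154 for *Ctss*. Over all 13 alternatives *Csf1r* lost it under 8 and *Ctss* under 5. For *Lyz2* and *Aif1* the same contrast missed the threshold (adjusted p = 0.051 and 0.0521). These calls compare with large backgrounds. Among all 11915 genes tested, 21.0% were lower and 17.1% higher in ganglion than in central spots, 12.3% lower and 12.5% higher in nerve than in central spots, and 18.4% lower and 15.2% higher in ganglion than in nerve spots. Of the 6 members, 4 were lower in ganglion than in central spots, 3 were lower in nerve than in central spots, 3 were lower in ganglion than in nerve spots and none was higher in any of the 3 contrasts.

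**Figure D1:**
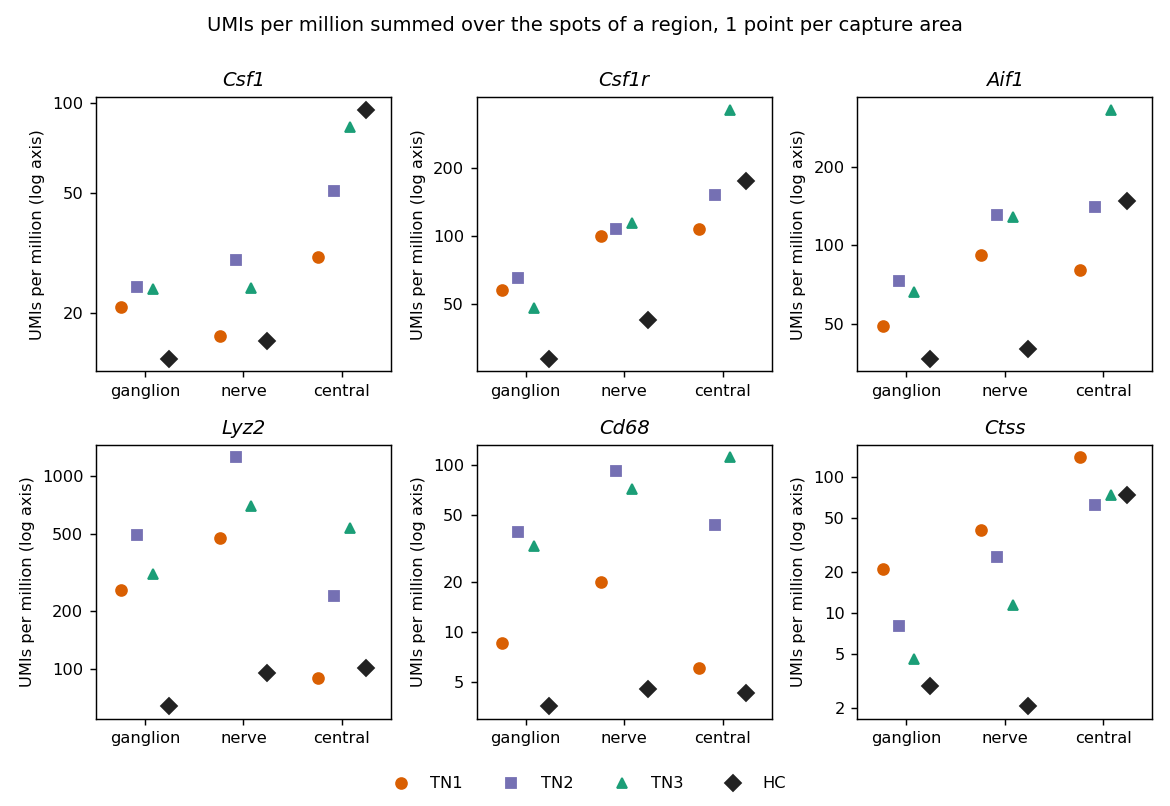
CPM (log axis) of the 6 members summed over the ganglion, nerve and central spots of each capture area, 1 point per area (TN1, TN2, TN3 and HC). *Csf1* and *Ctss* lie higher in central than in ganglion spots in every area, while HC is the lowest point for *Lyz2* and *Cd68* in ganglion and nerve spots.

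A finer view of 8 classes of spots separated the members further. *Csf1* was highest in central myelin spots, at 83.2 ± 21.2 CPM (SD, n = 4 areas), followed by astrocyte spots at 66.7 ± 23.3 CPM. Nerve, ganglion and central neuron spots came last at 21.8 ± 6.66, 20.8 ± 4.75 and 19.8 ± 5.53 CPM, the last in 2 areas. *Csf1r* and *Aif1* led in astrocyte spots, with means of 234 and 205 CPM, and then in central myelin spots, with 202 and 180 CPM. *Ctss* led in central myelin spots at 113 ± 51.4 CPM. *Lyz2* and *Cd68* led instead in connective tissue spots, with 528, 1532 and 1937 CPM of *Lyz2* and 43.7, 141 and 239 CPM of *Cd68* in TN1, TN2 and TN3. HC had too few connective tissue spots to be summed. For every member, each class overlapped its neighbour in this order over the areas, so the order of neighbours is not beyond their spread. Central myelin and ganglion spots did not overlap for *Csf1*, *Csf1r*, *Aif1* and *Ctss*. Differences between these classes are common, since edgeR called 5569 of 11030 genes between them, 2619 of them lower in ganglion spots. The share of all genes without overlap was not counted.

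**Figure D2:**
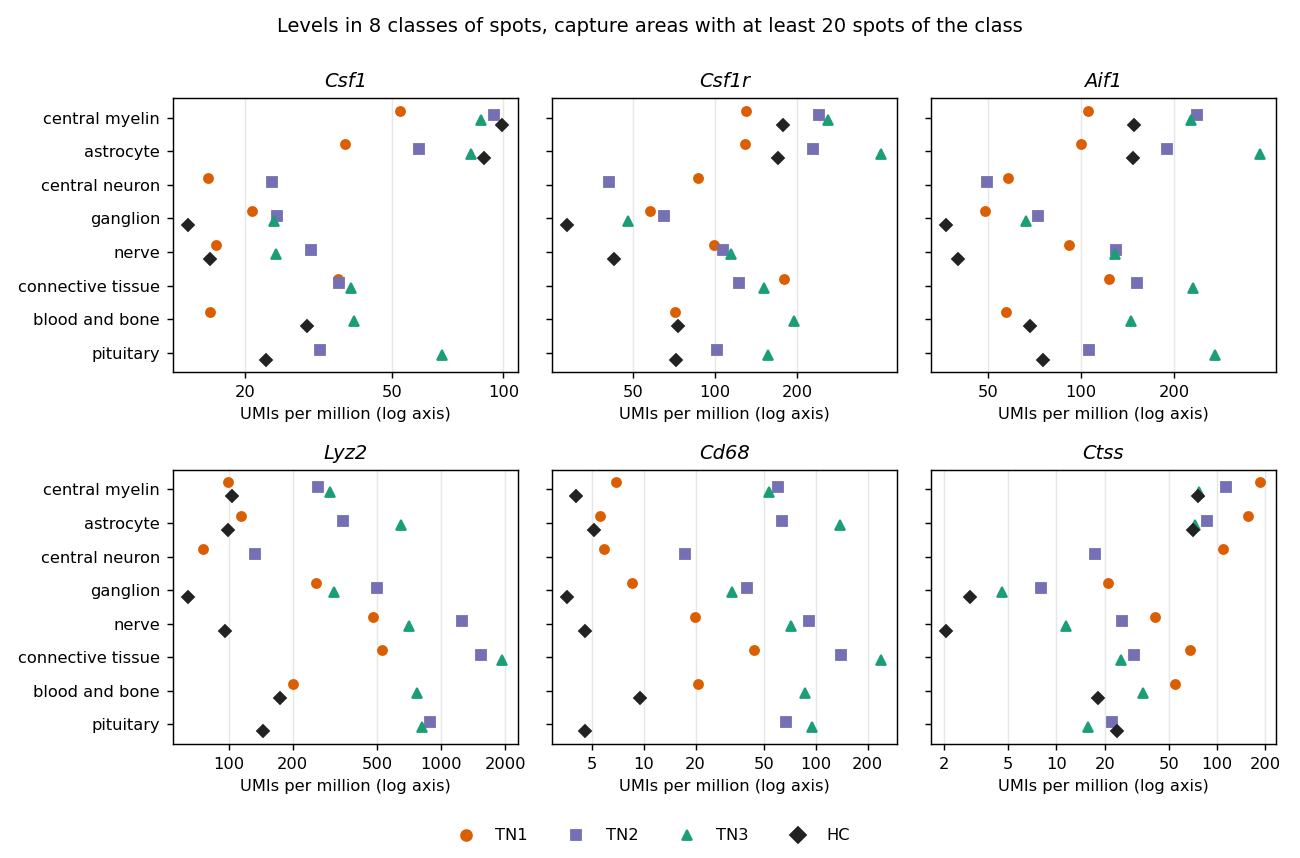
CPM (log axis) of each member in 8 classes of spots, 1 point for each capture area with at least 20 spots of the class. Central myelin and astrocyte spots lie to the right for *Csf1*, *Csf1r*, *Aif1* and *Ctss*, whereas connective tissue spots lie to the right for *Lyz2* and *Cd68*.

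Across the 12 sums of 3 tissues and 4 areas, some pairs of members were more alike than others, without a clean split. *Aif1* lay between, with r = 0.687 to *Ctss*, 0.677 to *Cd68* and 0.517 to *Lyz2*. *Csf1r* and *Aif1* ran close together (Pearson's r = 0.964), and *Lyz2* and *Cd68* did so as well (r = 0.903), whereas *Csf1* and *Lyz2* were nearly unrelated (r = 0.0794). Among 5923 genes with a mean of at least 20 CPM, those most like *Csf1r* included *Pld4* (r = 0.986) and *Rnaset2* (0.967), and those most like *Aif1* were *Fcer1g* (0.988), *C1qb* (0.986) and *Rnaset2* (0.982). Those most like *Cd68* were *Slc16a11* (0.99), *Gpnmb* (0.978) and *Foxc1* (0.971), and those most like *Lyz2* were *Cemip* and *Cmtm3* (both 0.963) and *Khdc4* (0.956). *St3gal4* (0.956), *Ptgr2* (0.952) and *Klhl2* (0.947) were most like *Csf1*, and *Rhob* (0.946), *Rab10* (0.933) and *Pnp* (0.928) most like *Ctss*. The 12 sums share libraries and depth, and no test was made. Within a tissue and area, *Csf1* and *Csf1r* were almost unrelated over single spots, with r between -0.11 and 0.14 over 61 to 766 spots, while *Lyz2* and *Cd68* ranged from -0.0011 in the ganglion spots of TN3 to 0.65 in the nerve spots of TN2. Counts per spot are sparse, so these values describe the spots only.

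In the ganglion, all 6 members were above HC in every TN area. *Lyz2* was at 257, 498 and 312 CPM in TN1, TN2 and TN3 against 64.6 in HC, and *Cd68* at 8.57, 39.6 and 32.4 CPM against 3.60. No TN area overlapped HC for any member, but 33.7% of all 11823 genes tested showed 3 TN areas above HC in these spots. The edgeR test gave log2 fold changes of 2.40 ± 0.39 for *Lyz2*, 2.82 ± 0.84 for *Cd68*, 1.91 ± 0.83 for *Ctss*, 0.92 ± 0.22 for *Csf1r*, 0.71 ± 0.24 for *Aif1* and 0.65 ± 0.21 for *Csf1*. None passed, with adjusted p from 0.206 for *Lyz2* to 0.445 for *Ctss*. None of all genes tested passed either (0%), while 1323 genes had an unadjusted p under 0.05 and DESeq2 called 164. *Lyz2* passed with DESeq2, without the filter on low counts, without TN1 and without TN2, and *Csf1r*, *Aif1* and *Cd68* passed without TN1. Over all genes tested, these fits called 107 of 11823, 33 of 18138, 330 of 11309 and 8 of 11972 higher, in that order. Without TN1, *Cd68* had a log2 fold change of 3.25 with an adjusted p of 0.000212.

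The nerve held the clearest differences between TN and HC. *Csf1r* was at 99.6, 107 and 114 CPM in TN1, TN2 and TN3 and at 42.5 CPM in HC, and *Aif1* at 91.4, 130 and 129 CPM against 40.1. *Lyz2* was at 479, 1258 and 703 CPM against 95.8. All TN areas lay above HC, and TN2 stood highest for *Lyz2*. In the edgeR fit *Csf1r* rose by 1.298 ± 0.21 on the log2 scale (adjusted p = 0.0352), *Aif1* by 1.503 ± 0.26 (adjusted p = 0.0405) and *Lyz2* by 3.02 ± 0.57 (adjusted p = 0.0465), an 8.13-fold difference. Thus 3 of the 6 members were called higher, where 0.839% of all 10489 genes were called higher and 4.15% lower. *Cd68* (3.67 ± 1.03, adjusted p = 0.101) and *Ctss* (3.59 ± 1.08, adjusted p = 0.117) had the largest fitted values but did not pass. Both passed under 4 of 11 alternatives, which were DESeq2, no filter on low counts, without TN1 and without TN3. Over all genes tested, these fits called 247 of 10489, 261 of 16659, 1156 of 9996 and 74 of 10173 higher, in that order. Their areas were far apart, since *Ctss* was at 41.1, 25.8 and 11.5 CPM in TN1, TN2 and TN3 against 2.07 CPM, or 5 UMIs, in HC. *Csf1* did not pass (0.50 ± 0.35, adjusted p = 0.423), and its level in TN1, 16.7 CPM, was close to that in HC, 16.1 CPM. All 6 members had 3 TN areas above HC, as did 36.0% of all genes tested.

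The 3 nerve calls depended on how the spots were chosen. With K-means clusters instead of marker scores no gene was called, and *Csf1r*, *Aif1* and *Lyz2* had log2 fold changes of 1.498, 2.17 and 3.53 with adjusted p of 0.187, 0.19 and 0.187. Without TN3 the calls of *Csf1r* and *Aif1* were lost at adjusted p = 0.0873 and 0.0622. With no margin between scores those of *Aif1* and *Lyz2* were lost (adjusted p = 0.0506 and 0.0538), and with a margin of 0.4 that of *Csf1r* (adjusted p = 0.0514). The fitted values of all 6 members stayed positive under each of the 11 alternatives.

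In the central tissue, TN and HC overlapped for *Csf1r*, *Aif1*, *Lyz2* and *Ctss*. *Csf1* was below HC in every TN area, at 30.7, 50.9 and 83.2 CPM against 95.02, and *Cd68* was above it, at 6.11, 43.3 and 111 CPM against 4.34. Of all 11695 genes tested, 18.8% had 3 TN areas below HC and 27.5% had them above. The edgeR fold changes were -0.90 ± 0.53 for *Csf1* and 3.48 ± 1.78 for *Cd68*, both with an adjusted p of 0.974, and no gene was called (0%). At an unadjusted p under 0.05 there were 473 genes, and DESeq2 called 1. Central neuron spots, which held little *Csf1* (15.9 and 23.7 CPM), numbered 288 in TN1 and 94 in TN2 but 4 in TN3 and 2 in HC. In central myelin spots alone *Csf1* was at 52.4, 94.2 and 87.1 CPM against 99.2 in HC, and its log2 fold change shrank to -0.43. TN3 was the highest area for *Csf1r* and *Aif1*, and without it *Csf1r* and *Aif1* turned to -0.50 each.

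**Figure D3:**
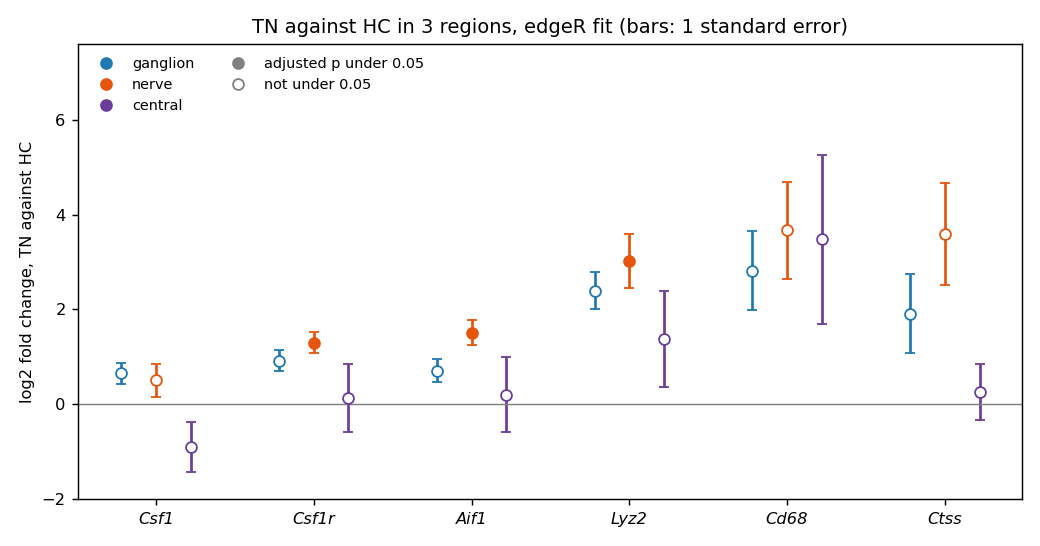
Log2 fold change of TN against HC from edgeR for the 6 members in ganglion, nerve and central spots, with bars of 1 standard error of the fit. Filled points passed an adjusted p of 0.05, which only *Csf1r*, *Aif1* and *Lyz2* in nerve spots did. *Csf1* is the 1 member below 0 in central spots.

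The difference of the TN effect between ganglion and central spots was tested as an interaction. It was 1.72 ± 0.45 for *Csf1* (edgeR adjusted p = 0.684) and between -0.26 for *Cd68* and 1.58 for *Ctss* in the other members, and no gene passed (0% of 12601). At an unadjusted p under 0.05 there were 898 genes, and DESeq2 called 3. Without TN3 the interaction passed for *Csf1* (2.06, edgeR adjusted p = 0.00711), *Csf1r*, *Aif1*, *Lyz2* and *Ctss*, so it rests on which TN areas are included. That fit called 570 of all 12339 genes tested, 201 of them higher.

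Other macrophage genes moved with the members. Of 13 further genes that macrophages and microglia share, all 13 were above HC in 3 TN areas of the ganglion (median log2 fold change 1.41, against 0.027 over all genes) with none called, and 12 of 13 were in the nerve (median 2.23, against 0.052). In the nerve 4 of them were called higher, namely *Fcer1g*, the common gamma chain of Fc receptors, *Adgre1*, the macrophage antigen F4/80, *C1qc*, a chain of complement C1q, and *Cd53*. *Fcer1g* was at 109, 198 and 171 CPM against 38.0 in HC (2.02 ± 0.35, edgeR adjusted p = 0.0401). In the central tissue 12 of 13 had a positive fold change (median 0.703), and only 2 had 3 TN areas above HC. Among all genes, 33.7, 36.0 and 27.5% had 3 TN areas above HC in ganglion, nerve and central spots. In the nerve 0.839% of all genes were called higher.

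Genes that separate macrophages from microglia were less abundant. Of 6 tissue macrophage genes tested in the nerve, all had 3 TN areas above HC, as did 36.0% of all genes, and none was called. *Mrc1*, the mannose receptor, was at 17.6, 17.2 and 13.9 CPM against 7.02, and *Pf4*, a platelet and macrophage chemokine, at 23.8, 66.8 and 23.3 CPM against 5.78. All 5 microglia genes tested in the nerve had a positive fold change (median 1.55), and 4 had 3 TN areas above HC. Of these 5, 1 was called higher, against 0.839% of all genes. In the ganglion the lists were mixed. Of 8 tissue macrophage genes tested there, 5 had 3 TN areas above HC and 3 had them below. Of 6 microglia genes, 4 had them above and 2 below, where 33.7% of all genes had them above. The share of all genes with them below is not given for the ganglion. *Trem2*, a lipid receptor of microglia and other macrophages, was at 22.2, 74.0 and 53.7 CPM in the nerve of TN against 6.195 CPM in HC (2.94 ± 0.76, edgeR adjusted p = 0.087). The microglia marker *Tmem119* was at 28.6, 38.3, 80.9 and 39.0 CPM in central spots, with HC last, and at 5.78 to 18.1 CPM in nerve spots. *Sall1*, a microglia transcription factor that other glia of the brain can also hold, was at 30.6 to 67.4 CPM in central spots and at or below 6.197 CPM in nerve and ganglion spots.

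Genes of other cells moved as well. Sensory neuron genes had 6 of 9 called lower in the nerve, with all 9 below HC in 3 TN areas. No share of all genes with 3 TN areas below HC is given for nerve spots. Central neuron genes had 2 of 5 called lower there, *Grin1* and *Syt1*. This list is not particular to central tissue. In TN1, TN2, TN3 and HC it summed to 343, 287, 243 and 349 CPM in ganglion spots and to 625, 438, 47.9 and 81.2 CPM in central spots. Of all genes tested in the nerve, 4.15% were called lower and 0.839% higher. In nerve spots the connective tissue list summed to 6787, 5875 and 5425 CPM in TN1, TN2 and TN3 and to 2902 CPM in HC, with 3 of 8 tested genes called higher. Over the ganglion it summed to 1234, 2615, 2429 and 1172 CPM, the order in which *Cd68* and *Lyz2* also had TN1 nearest to HC. T cell genes summed to 9.47 to 21.95 CPM in the nerve spots of TN and 1.65 CPM in HC, with 2 tested and none called. Neutrophil genes went the other way, at 11.1 to 18.9 CPM in the ganglion spots of TN and 79.5 CPM in HC, and none of 7 was called. HC held much the same in nerve and central spots, at 77.2 and 69.8 CPM. The HC area had 398 blood and bone spots, against 42, 6 and 71 in TN1, TN2 and TN3. *S100a8* and *S100a9* stand on the neutrophil and on the blood and bone list. The part of blood and bone tissue in the neutrophil level was not tested. Monocyte genes had 1 of 3 called in the nerve, the fibronectin gene *Fn1*, which connective tissue also expresses. Lipid and phagocytosis genes had none of 9 called in the nerve, endothelial genes none of 5 and satellite glia genes none of 5. Of 10 cathepsin and related genes, *Ctss* included, 2 were called higher, and the abundant *Ctsb* and *Ctsd*, proteases of most cells, did not pass (-0.51 and -0.03). Blood and bone genes had 1 of 9 called lower. B cell genes stayed at or below 1.96 CPM in every sum. The part of these cells in the levels of the members was not tested.

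Among the 13 genes of the Csf1 axis, 10 were tested in the nerve and 8 had 3 TN areas above HC, as did 36.0% of all genes. Besides *Csf1r*, only *Spi1* was called, at 14.4, 17.7 and 18.3 CPM against 3.72 in HC (2.13 ± 0.39, edgeR adjusted p = 0.0444). Of all genes tested in the nerve, 0.839% were called higher. The second ligand gene *Il34* had another order of tissues than *Csf1*. It was at 49.96, 53.4, 32.6 and 16.5 CPM in nerve spots, 25.0, 17.7, 14.3 and 9.98 CPM in ganglion spots and 13.4, 7.74, 8.04 and 2.17 CPM in central spots. Every TN area was above HC in all 3 tissues. *Il34* was higher in nerve than in central spots by 2.26 ± 0.22 (edgeR adjusted p = 4.68e-05) and lower in ganglion than in nerve spots by -1.26 ± 0.20 (edgeR adjusted p = 0.00238), and also higher in ganglion than in central spots (0.998 ± 0.21, edgeR adjusted p = 0.00485). Its TN against HC fold changes of 0.88, 1.40 and 2.08 in ganglion, nerve and central spots did not pass (adjusted p = 0.424, 0.0933 and 0.974).

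The other axis genes differed widely in level. The adaptor *Tyrobp*, which signals with several myeloid receptors, was at 94.7, 229 and 211 CPM in the nerve of TN against 35.1 in HC (2.29 ± 0.53, edgeR adjusted p = 0.0709). *Grb2*, an adaptor of most cells, was at 128, 148 and 123 CPM against 116 (0.17 ± 0.20). *Irf8*, a myeloid transcription factor, was at 7.18, 15.3 and 17.1 CPM against 4.13, and *Cebpa*, another, was lower than HC in each TN area of the nerve at 0.980, 5.25 and 5.75 CPM against 9.09. *Cbl* and *Plcg2* stayed at or below 1.03 CPM in every tissue. Over the ganglion 11 axis genes were tested, with 9 above and 2 below HC in all TN areas and none called, and over the central tissue 2 of 11 were above and 2 below. Among all genes, 33.7% had 3 TN areas above HC in the ganglion, where the share below is not given. In the central tissue 27.5% of all genes had them above and 18.8% below.

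**Figure D4:**
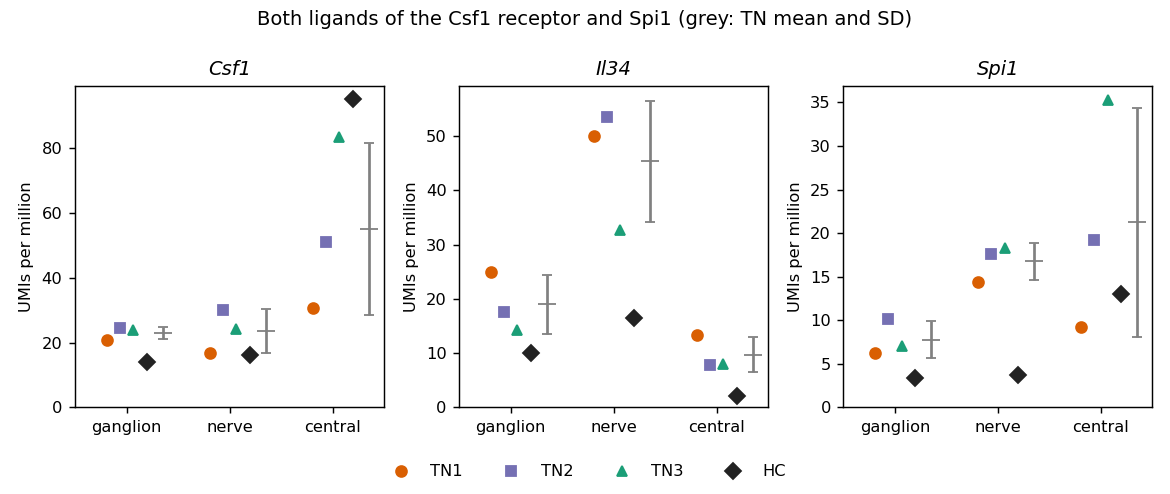
CPM of *Csf1*, *Il34* and *Spi1* in ganglion, nerve and central spots, with 1 point per capture area and, in grey, the mean and SD of the 3 TN areas. *Csf1* is highest in central spots and *Il34* in nerve spots, and HC is the lowest point for *Il34* in each tissue.

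Of the other colony-stimulating factors, *Csf2* and *Csf3* had no UMI in any ganglion, nerve or central spot, and *Csf2rb* stayed at or below 0.580 CPM. *Csf2ra*, a receptor chain for the factor made by *Csf2*, was at 24.2, 38.2 and 32.0 CPM in the nerve of TN against 19.4 in HC (0.65 ± 0.29, edgeR adjusted p = 0.235). The study also names *Slc7a1*, a transporter of cationic amino acids, and *Celsr3*, a cadherin, as partners of *Csf1*. Its CellPhoneDB analysis lists both pairs, between ganglion and myelin, as present in HC only. The levels given here are of single genes and do not test these pairs. *Slc7a1* was below HC in all TN areas of the ganglion (38.0, 34.2 and 31.4 against 50.3 CPM) and of the nerve (21.9, 18.1 and 17.0 against 43.8 CPM), with adjusted p of 0.336 and 0.062 in edgeR. *Celsr3* was higher in ganglion than in central spots by 1.36 ± 0.28 (edgeR adjusted p = 0.00407) and did not differ past the threshold between TN and HC in any tissue.

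The ganglion spots of each area were next cut into 3 equal parts by an injury score. The highest part (injury-high) was set against the lowest (injury-low). The score was the share of a spot's UMIs that 10 genes such as *Atf3* and *Gal* held together, none of them a member. Abundant genes thus weighed most. In the injury-high spots of TN1, TN2 and TN3 these genes summed to 1031, 2644 and 1020 CPM. *Gal* alone held 466, 1533 and 465 CPM of these sums. *Csf1* was at 27.8, 38.1 and 35.5 CPM in the injury-high spots of TN1, TN2 and TN3 and at 12.5, 16.9 and 21.2 CPM in the injury-low spots of the same areas. It was higher in the injury-high spots of each TN area. The ranges of the parts did not overlap, and the share of all genes without such overlap was not counted. The rise was 1.05 ± 0.17 on the log2 scale, or 2.07-fold (edgeR with the area as a block, 3 TN areas, adjusted p = 9.1e-05). Every one of the 12 alternatives called it, with values from 0.79 to 1.199 and adjusted p of at most 0.0368. In HC, where the injury genes summed to 87.0 CPM in injury-high spots against 1020 to 2644 CPM in TN, *Csf1* was at 14.7 and 14.1 CPM. In the injury-low spots of HC the injury genes summed to 1.27 CPM, with 7 of 10 genes at 0. Those of TN held 78.7 to 384 CPM. Spots with equal scores were ranked in barcode order. The HC split thus spanned a smaller range of injury genes than the TN splits and is not a like contrast. Whether the TN and HC splits differ was not tested.

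The macrophage genes followed the same split. *Lyz2* went from 132, 347 and 306 CPM in injury-low spots to 388, 660 and 378 CPM in injury-high spots of TN1, TN2 and TN3, a rise of 0.95 ± 0.13 (edgeR adjusted p = 3.73e-06). *Cd68* went from 4.30, 28.9 and 30.1 CPM to 13.6, 56.3 and 40.0 CPM (0.88 ± 0.18, edgeR adjusted p = 0.00133). Both were higher in each TN area, with log2 ratios of CPM that were highest in TN1 (1.54 for *Lyz2* and 1.46 for *Cd68*) and lowest in TN3 (0.307 and 0.401). The SE of the fit does not measure this spread over areas. *Csf1r* rose by 0.48 ± 0.13 (edgeR adjusted p = 0.0141) and *Aif1* by 0.43 ± 0.12 (edgeR adjusted p = 0.0154), and *Csf1r* hardly differed in TN3, at 50.7 and 51.7 CPM. *Ctss* did not pass (0.37 ± 0.27, adjusted p = 0.469), with 22.4 CPM in both parts of TN1. In HC the *Lyz2* level was 65.9 and 67.1 CPM and that of *Cd68* 3.65 and 3.63 CPM.

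Thus 5 of 6 members were called higher in injury-high spots, where 5.90% of all 9560 genes were called higher and 5.22% lower. All 6 had a higher CPM in the injury-high part of 3 TN areas, as did 19.0% of all genes. Of 12 further shared macrophage genes tested, 7 were called higher (median 0.644, against 0.0025 over all genes), among them *C1qa* (0.73 ± 0.12, edgeR adjusted p = 7.59e-05) and *Tyrobp* (0.63 ± 0.12, edgeR adjusted p = 0.000634). *Pf4* rose by 1.12 ± 0.23 (edgeR adjusted p = 0.0012) and *Folr2*, a folate receptor of tissue macrophages, by 0.83 ± 0.26 (edgeR adjusted p = 0.0368), while *Il34* missed the threshold (0.56 ± 0.19, adjusted p = 0.0544). Under the stricter margin of 0.4 the calls of *Csf1r* and *Aif1* were lost (adjusted p = 0.0921 and 0.14). With DESeq2 the calls of *Lyz2*, *Cd68*, *Csf1r* and *Aif1* were lost (adjusted p from 0.102 to 0.572) and that of *Csf1* held. Without TN2 those of *Cd68*, *Csf1r* and *Aif1* were lost, at adjusted p = 0.125, 0.18 and 0.231, and without TN1 that of *Csf1r*, at 0.195.

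Other contents of the spots also differed between the injury parts. The sensory neuron list summed to 8846, 8210 and 8341 CPM in injury-high spots and to 7312, 10980 and 7536 CPM in injury-low spots, with 1 gene called higher and 3 lower of 9 tested. Satellite glia genes summed to 10280, 12470 and 10760 CPM against 10030, 11620 and 9781 CPM. Connective tissue genes summed to 1471, 2451 and 2508 CPM against 958, 2449 and 2345 CPM, with 2 of 7 called higher. Peripheral myelin genes summed to 13510, 9441 and 14700 CPM against 7526, 9965 and 15260 CPM, with 2 of 10 called higher, and TN1 had the widest ratio, as it did for *Lyz2* and *Cd68*. Median depth was 48970, 49740 and 40210 UMIs in injury-high spots and 31090, 61240 and 33550 UMIs in injury-low spots, so TN2 ran the other way from TN1 and TN3. The part of these differences in the result was not tested.

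**Figure D5:**
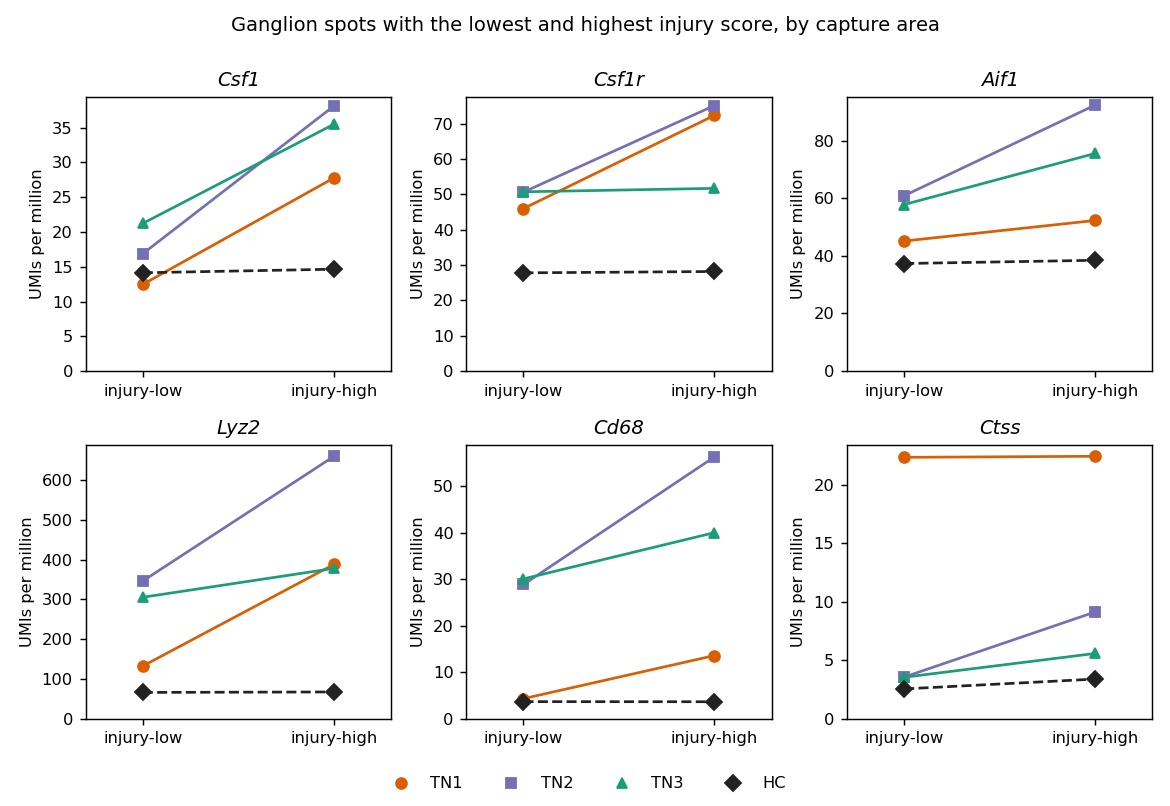
CPM of the 6 members in the injury-low and injury-high ganglion spots of each capture area, joined by a line (dashed for HC). *Csf1*, *Lyz2* and *Cd68* are higher in the injury-high spots of all TN areas, and the HC lines of these 3 genes are nearly flat, while *Ctss* in HC goes from 2.54 to 3.38 CPM. The HC split spans a smaller range of injury genes than the TN splits and is not a like contrast.

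The share of spots with at least 1 UMI of a member depends on depth, so each spot was thinned to 2000 UMIs and shallower spots were left out. *Lyz2* was then seen in 36.3% of the ganglion spots of TN1 (exact 95% binomial interval 29.8 to 43.2%), 62.1% in TN2 (52.6 to 70.9%) and 42.3% in TN3 (34.4 to 50.5%), against 14.2% in HC (11.5 to 17.2%). In nerve spots the shares were 51.9, 75.4 and 63.1% in TN against 13.2% in HC. All intervals of TN lay above that of HC in both tissues, where 84.8% of HC ganglion spots and 68.1% of HC nerve spots held *Lyz2* before thinning. *Cd68* was seen in 4.40, 21.3 and 14.3% of thinned nerve spots of TN and in none of 144 in HC, for which the interval reaches 2.53%. *Csf1* was seen in only 1.72 to 2.94% of thinned ganglion spots in any area, with HC the highest, so no difference between TN and HC was detectable at this depth. It was seen in 7.89, 10.2, 14.3 and 16.1% of thinned central spots of TN1, TN2, TN3 and HC. Intervals cover counting error only.

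*Lyz2* has a near copy, *Lyc2*, beside it in the rat genome, and reads could be split between them. Over all spots *Lyz2* had 78920 UMIs and *Lyc2* 288. In nerve and central spots *Lyc2* stayed at or below 2.07 CPM, and in ganglion spots it was at 2.98, 2.499, 3.58 and 4.50 CPM, highest in HC, where *Lyz2* was lowest. How reads that match both genes were counted is not given in the sources used here.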

How the data were processed

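Spatial libraries of 4 Visium capture areas were analysed. The deposited values are raw UMI counts of each gene in each spot under tissue, made by the authors with Space Ranger 1.2.0. Areas were told apart by the number after each barcode, in the order of the series description, since no file names them. The genome build is not given in the sources used here. Positions recur between areas by design of the slide, so 5537 spots carry a barcode that, without its area number, also occurs in another area.

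Tissue scores were mean z values over all spots of log(1 + UMIs per 10000) for each marker list. A spot took its leading list if the score was above 0 and 0.2 above that of any other tissue. The injury score pooled the UMIs of its genes instead. Levels are plain CPM, UMIs per 1000000 of the summed spots. Sums per area and tissue entered the quasi-likelihood test of edgeR 4.0.16, after filterByExpr and TMM scaling and with Benjamini-Hochberg adjustment at 0.05, and with 2 residual degrees of freedom for TN against HC. All 6 members passed the filter in every comparison. Spots were not taken as replicates. The SE after a log2 fold change is the size of the fold change divided by the square root of the F value of its test. It is not the spread over areas. Likeness used log2(CPM + 1). Alternatives were DESeq2 1.42.0, its size factors, no filter, other margins, K-means clusters (Seurat 5.3.0, sctransform 0.4.2), spots with at least 500 genes and 1000 UMIs, gene families left out, and areas left out. The tests were also run on simulated counts, drawn from gene means and the fitted dispersion trend. Such counts cannot check for spread particular to a gene or to an area.

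The members, lists and tests were chosen with earlier results of these data known. Named beyond the members are genes of the pathway lists, the most abundant genes of marker lists and the 3 genes most like each member, of which 1 gene is not reported here. *Adgre1*, *C1qc* and *Cd53* were named after their values were seen.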

Additional observations from a re-analysis of the deposited data

Results flagged for a closer look

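*Csf1* was flagged because its TN areas all moved one way against HC in one tissue and all the opposite way in another. Against HC the log2 fold change was 0.65 in ganglion spots and 0.50 in nerve spots, with all 3 TN areas above HC, and -0.90 in central spots, with all 3 below. The difference between ganglion and central spots was tested as an interaction in edgeR and did not pass (1.72, adjusted p = 0.684), and that between nerve and central spots was not tested. Central neuron spots, poor in *Csf1*, lay almost wholly in TN1 and TN2. In central myelin spots alone, which leaves out astrocyte spots too, the log2 fold change of *Csf1* was -0.43. The TN areas were at 52.4, 94.2 and 87.1 CPM there, against 99.2 CPM in HC. The part of central neuron spots by themselves was not tested.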

How the results depend on the processing

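Over all members, comparisons and settings, 494 values kept direction and side of the threshold, 36 gained a call, 39 lost one and 13 reversed; the cause was not tested. Counts of called genes moved most. For TN against HC, ganglion spots gave 0 calls, but 164 with DESeq2, 51 without the filter, 6 with a margin of 0.4 and 0 to 531 with an area left out (531 without TN1, 10 without TN2). Nerve spots gave 523, but 858 without the filter, 0 with K-means clusters and 273 to 2552 with an area left out (2552 without TN1, 273 without TN3). Central spots gave 0, but 1 with DESeq2 and up to 21 with an area left out (TN3). Between tissues, ganglion against central spots (4543) fell to 2958 without TN2 and 2817 without TN3 (4111 without TN1), nerve against central spots (2956) to 1574 without TN2 (2749 without HC) and 1964 without the area block, and ganglion against nerve spots (4006) to 1527 to 2100 with a TN area left out (4382 without HC) and 2313 without the block. The interaction (0) gave 3 with DESeq2, 1 without the filter and 570 without TN3. The injury comparison (1063) gave 259 with DESeq2, 635 with a margin of 0.4, 703 without TN1 and 456 to 1037 with an area left out (456 without TN2). *Ctss* in central spots turned to -0.17 without TN1, and *Csf1r* and *Aif1* to -0.50 each without TN3, with highs of 0.49 and 0.61 without TN1. *Lyz2* in ganglion against central spots became 0.027 without the filter, 0.0074 without mitochondrial, ribosomal and hemoglobin genes, 0.062 without a margin, 0.27 with K-means clusters, 0.27 without TN3 (-0.43 without TN1), 0.38 without HC, 0.091 without the block and 0.12 in central myelin spots only. *Cd68* in the interaction became 0.16 with K-means clusters and 0.48 without TN3 (-0.62 without TN1). No paired analysis was possible because HC pools 2 animals that its spots do not tell apart, and no label ties them to a TN area. Low levels such as *Ctss* in HC nerve spots rest on few UMIs.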

Other observations

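Within TN, *Ctss* and *Cd68* ranked the areas in opposite order. Over all spots of an area, *Ctss* was at 66.6, 27.4 and 21.3 CPM in TN1, TN2 and TN3, whereas *Cd68* was at 11.3, 87.3 and 116 CPM. HC was lowest for both, at 13.98 and 4.31 CPM. The same order of TN areas held in ganglion spots for *Ctss*, at 21.1, 7.997 and 4.61 CPM, and in connective tissue spots for both genes, at 67.5, 30.3 and 25.3 CPM of *Ctss* and 43.7, 141 and 239 CPM of *Cd68*. It did not hold everywhere, since *Ctss* was higher in TN3 than in TN2 in central spots and *Cd68* higher in TN2 than in TN3 in ganglion and nerve spots. Tissue shares also differed between TN1, TN2 and TN3, with 48.3, 26.1 and 22.2% central spots and 1.7, 27.0 and 20.1% connective tissue spots. Levels over all spots mix these shares. The areas are 1 animal each, and the cause was not tested.

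Pituitary spots of TN2, TN3 and HC held *Lyz2* at 883, 812 and 146 CPM and *Cd68* at 67.3, 94.3 and 4.55 CPM. TN3 had 23 such spots, and TN1, with 10, fell under the minimum of 20 and was not summed. Spots of no class held *Lyz2* at 382, 985 and 769 CPM in TN1, TN2 and TN3, again above HC.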
